A study of Arabidopsis thaliana with 2 samples.

Results

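Genes of the iron deficiency response and of iron storage were followed in wild-type and ago1-27 plants of Arabidopsis thaliana: the basic helix-loop-helix factors bHLH38, bHLH39, bHLH100 and bHLH101, the nicotianamine synthase NAS4, the E3 ligase BTS, the peptide IMA1 and the ferritins FER1, FER3 and FER4. The genes were chosen by identifier. Of these 10 genes, 4 had a row in the table of 6791 genes: bHLH38 (AT3G56970), bHLH39 (AT3G56980), bHLH100 (AT2G41240) and NAS4 (AT1G56430). The other 6 had none: bHLH101 (AT5G04150), BTS (AT3G18290), IMA1 (AT1G47400), FER1 (AT5G01600), FER3 (AT3G56090) and FER4 (AT2G40300) are not analysed here beyond their sequence.

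RNA was taken from tissue labelled flower buds of plants in soil, under a long day (light for 16 h, dark for 8 h, 20 °C), and was sequenced as 50-nt single-end reads without strand. The groups were wild type and ago1-27, a weak allele of ARGONAUTE1, the protein that carries most plant microRNAs to their targets, and each was 1 sample described as holding 3 biological replicates. The study asked which microRNA targets differ between these genotypes. Per genotype the table held a single RPKM, a read count scaled by transcript length and by library size, so no value below has a replicate error, no difference was tested, and whether any difference exceeds the spread between plants cannot be said.

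The table was also a selection. Except for 1 gene, every ratio of ago1-27 to wild type lay at least 1.5-fold from 1, and 69.4% of all rows were higher in ago1-27 against 30.6% lower. A gene with no row may have differed by less than that or missed a rule not given in the sources used here, and its level is unknown. As a base for the counts of rows below, the table held 6791 genes, while 27431 protein-coding promoters of the genome were searched for motifs. Most genes thus had no row. Library totals read from the steps of low values were 10453032, 11196495 and 13887069 reads for wild type and 11407616, 12164864 and 12294210 for ago1-27. Each of these totals rests on few genes, between 14 and 24. Intervals in parentheses are exact Clopper-Pearson intervals at 95% for the ratio, from the reads that a library of average size would hold, and so express counting error alone. Where values come in pairs, wild type is first. The number of libraries behind a value may differ between genes: of the listed genes with a row, LFY, ANX1, PRP3 and AT1G21140 had values that could be written as whole reads of 1 library per genotype, and the others, all 4 iron genes above included, could not. Read estimates and intervals assume 1 average library for every gene, so they are approximate. Of 12 floral organ identity genes chosen to check the labelled tissue, 3 had a row, and AP3, PI and AG, which define petals, stamens and carpels, had none. AP1, a sepal and petal gene, went from 0.0779 RPKM (wild type) to 0.733 (ago1-27). LFY had 0.151 and 1.17 RPKM, which match 2 and 18 reads of 1 library at a length of 1263 bases (annotated 1378), and SEP4 had 12.5 and 6.22 RPKM. Of wild-type RPKM, AP1 and LFY lay at percentile 0.56 and 1.46, and SEP4 at 67.0. The check therefore did not bear out the label flower buds, and genes without a row cannot decide it because their levels are unknown. Of 4 pollen markers 3 had a row and they differed in direction: AGP6 had 0.377 and 1.49 RPKM, ANX1 1.43 and 2.33, and STP9 0.917 and 0.167, with sums of 2.72 and 3.99.

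Plants answer iron shortage through a cascade of basic helix-loop-helix factors. Factors of subgroup IVc, such as ILR3 and bHLH34, switch on the subgroup Ib genes bHLH38, bHLH39, bHLH100 and bHLH101, whose proteins pair with FIT to turn on iron uptake in the root. BTS marks subgroup IVc factors for degradation, and IMA1 belongs to a family of small peptides that promote the deficiency response in shoot and root. Nicotianamine, made by NAS enzymes, chelates iron and other metals for transport along the plant, and ferritins store iron in plastids when it is plentiful.

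The promoters of the 4 genes with a row are shown because the 3 subgroup Ib genes lay on the same side of 1 and NAS4 on the other. Each is the 250 bases before the annotated transcript start on the gene's strand, from the TAIR10.1 genome with its RefSeq annotation, at chr3:21085246-21085495 for bHLH38, chr3:21087711-21087960 for bHLH39 and chr2:17199455-17199704 for bHLH100, all on the minus strand, and at chr1:21136585-21136834 on the plus strand for NAS4. Capitals mark E-boxes (CANNTG), the class of site that bHLH proteins bind, which read the same on both strands.
bHLH38: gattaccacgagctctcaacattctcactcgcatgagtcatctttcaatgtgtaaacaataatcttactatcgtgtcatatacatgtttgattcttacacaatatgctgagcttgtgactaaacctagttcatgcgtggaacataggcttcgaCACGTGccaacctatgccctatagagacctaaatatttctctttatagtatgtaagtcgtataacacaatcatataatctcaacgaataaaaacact
bHLH39: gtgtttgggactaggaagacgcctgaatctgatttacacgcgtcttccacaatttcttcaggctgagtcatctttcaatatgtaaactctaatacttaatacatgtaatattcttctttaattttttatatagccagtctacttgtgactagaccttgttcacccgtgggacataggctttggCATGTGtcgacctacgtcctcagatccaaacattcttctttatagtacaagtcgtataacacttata
bHLH100: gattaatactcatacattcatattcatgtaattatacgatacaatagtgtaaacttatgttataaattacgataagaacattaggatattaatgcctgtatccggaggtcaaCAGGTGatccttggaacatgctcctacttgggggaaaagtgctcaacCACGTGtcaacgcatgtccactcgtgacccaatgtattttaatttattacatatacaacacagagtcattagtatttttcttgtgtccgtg
NAS4: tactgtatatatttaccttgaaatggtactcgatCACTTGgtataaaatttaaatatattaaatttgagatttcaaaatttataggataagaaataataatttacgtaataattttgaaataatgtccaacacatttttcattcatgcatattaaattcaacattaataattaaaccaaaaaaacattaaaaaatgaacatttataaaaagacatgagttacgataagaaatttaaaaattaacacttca

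All 4 windows held an E-box, as did 55.3% of 27431 protein-coding promoters of this length. The G-box CACGTG, a form of the E-box, began at position -97 before the start of bHLH38 and at -91 before that of bHLH100, and 6.49% of all promoters held one. bHLH39 had CATGTG at -67 and NAS4 had CACTTG at -216. Over all 10 genes, 5 had a G-box: bHLH38, bHLH100, FER3, FER4 and BTS, the last with 3. The phosphate starvation motif P1BS (GNATATNC, either strand), found in 5.46% of promoters, was in none of the 10 windows. The longest run shared by the windows of bHLH38 and bHLH39 was the 16 bases tgagtcatctttcaat, which began at -217 and -187. bHLH100 and NAS4, on opposite sides of 1, shared the 12 bases ttacgataagaa, and the other pairs shared at most 8. These matches describe letters only.

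The subgroup Ib genes were higher in ago1-27, from low levels. bHLH38 and bHLH39 are neighbours on chromosome 3, at 21084035 to 21085245 and 21086390 to 21087710 in TAIR10.1, both on the minus strand with 2 exons and 1144 bases apart. The bHLH38 level was 0.495 RPKM in wild type against 1.99 in ago1-27, about 6 and 26 reads in an average library, which made it 4.02-fold higher (1.73 to 12.8). bHLH39 had 0.637 and 2.30 RPKM, about 9 and 33 reads, and was 3.60-fold higher (1.70 to 8.63). The neighbours thus had similar levels in each genotype, and the interval of each ratio held the other's ratio. Both were among the weakly expressed genes of the table, at percentile 4.56 and 5.98 of wild-type RPKM.

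bHLH100, on chromosome 2 at 17198037 to 17199454, was the most abundant of the 3. Its RPKM was 3.16 for wild type and 6.60 for ago1-27, about 43 and 91 reads, and was 2.09-fold higher (1.44 to 3.09). By its ratio it ranked 1362 among the 6791 genes, counted from the highest, where bHLH38 ranked 380 and bHLH39 471. It lay at percentile 27.0 of wild-type RPKM and 39.4 of ago1-27 RPKM.

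NAS4, a single-exon gene on chromosome 1 at 21136835 to 21138277, lay on the other side. Its RPKM was 17.6 for wild type and 9.51 for ago1-27, about 300 and 164 reads, and was 1.85-fold lower (1.52 to 2.25). Against the rest of the table it stood at percentile 75.8 of the wild-type levels and at 50.8 of the ago1-27 levels. It ranked 1267 from the lowest ratio. In RPKM, which is per length, the order from low to high was bHLH38, bHLH39, bHLH100 and NAS4 in both genotypes. By exact 95% Poisson intervals on the estimated reads, bHLH38 and bHLH39 overlapped in wild type, at 0.182 to 1.08 and 0.291 to 1.21 RPKM, and in ago1-27, at 1.30 to 2.92 and 1.58 to 3.23. The interval of bHLH100 stood clear of both in each genotype, at 2.29 to 4.26 and 5.32 to 8.11 RPKM. NAS4 stood clear of bHLH100 in wild type, at 15.6 to 19.7, but only just in ago1-27, where its interval began at 8.11 RPKM. The spread between plants is not in these intervals.

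**Figure D1:**
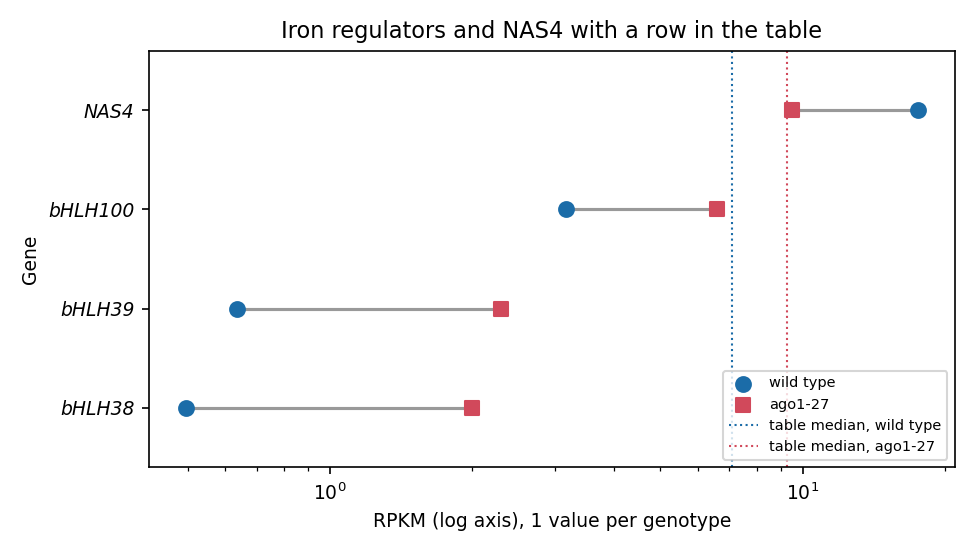
RPKM on a log axis for the 4 genes with a row, 1 value per genotype, wild type as circles and ago1-27 as squares, with dotted lines at the medians of the whole table (7.11 and 9.29 RPKM). The 3 bHLH genes lie below these medians in both genotypes with the square to the right of the circle, and NAS4 has the opposite order.

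The threshold for counting a gene was 1 or more in absolute difference of log2(RPKM + 1), given 1 RPKM or more in either genotype. Because of the added 1, this scale shrinks differences of low genes. On this scale bHLH39 differed by 1.01 and bHLH38 by 1.001, both just past it, bHLH100 by 0.87 and NAS4 by -0.82. So 2 of the 4 genes counted as higher, beside 11.3% of the 6606 genes compared, and 0 as lower, beside 10.5%. Those 2, bHLH38 and bHLH39, reached 1 RPKM in ago1-27 alone, the genotype where they were higher. Their count is therefore a description and lends no support. Rescaling by the table's median ratio or by quantiles left no bHLH gene past the threshold and put NAS4 past it downwards. Of all genes compared, 30% and 18.4% were then past it downwards. All 4 kept their direction under both rescalings. For the median ratio this follows from the size of their deposited ratios, and for quantiles from their ranks among the levels.

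Exact matches of read length were unique to these genes, and near matches were not searched. None of the 1033 50-base words of the bHLH38 transcript occurs elsewhere in the nuclear genome, and the same holds for the 1166 words of bHLH39, the 1108 of bHLH100 and the 1394 of NAS4. Strand is a limit for bHLH38: in TAIR10.1, 386 exonic bases overlap PIP5K4 (AT3G56960), a lipid kinase gene on the opposite strand. PIP5K4 was itself 1.76-fold higher, at 2.56 and 4.50 RPKM. Reads of the overlap cannot be told apart by strand, and their part in the bHLH38 values was not tested. bHLH39, bHLH100 and NAS4 overlap no annotated gene.

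The wider iron system was read from 8 lists of 105 genes in all, including the 10. Rows existed for 36 of them, 14 higher and 22 lower in ago1-27, beside 69.4% and 30.6% of all rows. For the 35 with 1 RPKM or more in either genotype, the median difference in log2(RPKM + 1) was -0.64, beside 0.62 for all genes compared. Of the 35, 5 were past the threshold upwards, beside 11.3% of all genes compared, and 5 downwards, beside 10.5%. Together these were 10 of 35, beside 21.8%. Without the 10 genes followed here, 32 rows remained, 11 higher and 21 lower. Of 31 of these that were compared, 3 were past the threshold upwards and 5 downwards. In bulk tissue, fewer cells of a type and less RNA per cell cannot be told apart.

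Among the transcription factors, 9 of 18 had a row, 6 higher and 3 lower, with 3 past the threshold upwards. The 6 include bHLH38, bHLH39 and bHLH100, already described above. Those past the threshold were bHLH38, bHLH39 and MYB10, and all 3 reached 1 RPKM in ago1-27 alone, where they were higher. Over the whole table, 69.4% of rows were higher and 11.3% of genes compared were past the threshold upwards. MYB10 (AT3G12820), an activator of NAS4 under iron deficiency, had 0.362 and 2.21 RPKM, about 5 and 32 reads, and was 6.10-fold higher (2.45 to 20.8). FIT (AT2G28160), the partner of the subgroup Ib factors, was 2.65-fold higher (1.47 to 4.89), at 1.03 and 2.73 RPKM. bHLH121 (AT3G19860), a factor that acts above the subgroup Ib genes, was at 45.2 and 72.3 RPKM, 1.60-fold higher (1.47 to 1.74), but its difference was -0.02 after rescaling by the median ratio. bHLH34 of subgroup IVc was 1.74-fold lower (1.26 to 2.38). PYE, a repressor that binds NAS4, was 1.61-fold lower at 9.68 and 6.01 RPKM, so it lay on the same side as NAS4.

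The list that held BTS and IMA1 had 3 rows of 7, all higher as deposited, beside 69.4% of all rows. Of the 3, 1 was past the threshold upwards, beside 11.3% of genes compared. AT1G47395, annotated as an uncharacterized protein 1876 bases from IMA1, had 3.08 and 7.36 RPKM, 2.39-fold higher (1.56 to 3.82) and past the threshold. IMA1 shares 10 of its 730 50-base words with it. AT2G30766, also uncharacterized in the annotation, had 32.9 and 56.0 RPKM, 1.70-fold higher (1.56 to 1.86). AT1G18910, annotated as a zinc ion binding protein, was 1.74-fold higher (1.35 to 2.25). After rescaling by the median ratio the differences of the last 2 were 0.07 and 0.07, and AT1G47395 was below the threshold under both rescalings, at 0.46 and 0.69.

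Of 11 genes of root iron uptake, 1 had a row, the exporter gene ABCG37 at 0.376 and 0.762 RPKM. IRT1, the root iron transporter, and FRO2, the ferric reductase, both targets of FIT with the subgroup Ib factors, had none. Of 5 root hair and epidermis markers, PRP3 alone had a row, at 0.381 and 1.25 RPKM, which match 5 and 18 reads of 1 library at a length of 1173 bases (annotated 1221). It lay on the same side as FIT and MYB10, and its part in their values was not tested.

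Of 28 genes of metal chelation and transport, 10 had a row, 8 lower and 2 higher, with 3 past the threshold downwards and 1 upwards. Of all rows 30.6% were lower, and 10.5% of genes compared were past the threshold downwards. NAS3 (AT1G09240) stood beside NAS4, 4.10-fold lower (2.38 to 7.70), with 3.96 and 0.966 RPKM. NAS1, named after its value was seen, was 1.70-fold lower (1.47 to 1.97), at 29.8 and 17.5 RPKM, and NAS2 had no row. Thus all 3 nicotianamine synthases other than NAS2 were lower. Of the carriers of metal-nicotianamine, YSL2 (AT5G24380) was 2.73-fold lower (2.36 to 3.16), at 24.6 and 8.99 RPKM. YSL3 (AT5G53550) was 3.75-fold higher (3.40 to 4.14), at 15.3 and 57.5 RPKM, and was the 1 iron gene past the threshold upwards after the median rescaling. The other higher gene of this list was FRO3, likewise named after its value was seen. It had 12.6 and 20.8 RPKM, 1.64-fold higher (1.45 to 1.86), with a difference of 0.02 after the median rescaling.

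All 3 listed genes with a row that are annotated as vacuolar iron transporter family proteins were lower too, beside 30.6% of all rows. AT3G25190 had 4.39 and 0.938 RPKM, 4.68-fold lower (2.51 to 10.3). AT1G21140 had 1.17 and 0.183 RPKM, which match 11 and 2 reads of 1 library at a length of 899 bases, while the annotated 1099 bases give about 15 and 2 reads in an average library. AT1G76800, named after its value was seen, was 2.33-fold lower (1.30 to 4.15).

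**Figure D2:**
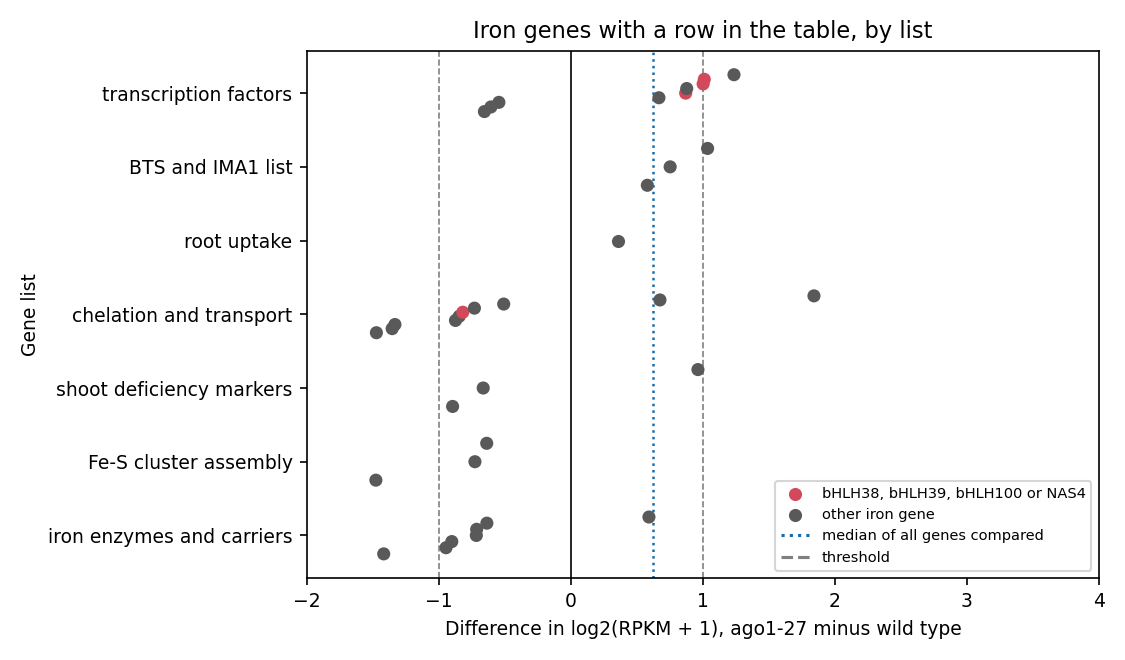
Difference in log2(RPKM + 1), ago1-27 minus wild type, for each iron gene with a row, by list, with bHLH38, bHLH39, bHLH100 and NAS4 in red, dashed lines at the threshold of 1 in either direction and a dotted line at the median of all genes compared (0.62). Transcription factors lie on both sides of 0, while most points of chelation and transport and of iron enzymes lie below it.

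No ferritin of the 4 listed had a row. FER1, FER3 and FER4 each have 8 exons in TAIR10.1, and none of their 1372, 1228 and 1203 50-base words occurs elsewhere in the nuclear genome. The same held for bHLH101 and BTS, with 980 and 4446 words. Shoot deficiency markers had 3 of 10. GRF11, a 14-3-3 protein, was 2.16-fold higher (1.60 to 2.94), at 4.44 and 9.60 RPKM, while CGLD27 was 1.59-fold lower (1.49 to 1.71) and AT3G56360 was 1.87-fold lower (1.76 to 1.99). Markers of the iron response therefore had ratios on both sides of 1.

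The listed iron-containing enzymes and carriers with a row were lower with 1 exception. Of 11 listed, 7 had a row and 6 of these were lower, beside 30.6% of all rows. Past the threshold downwards was 1, beside 10.5% of genes compared. CAT2, a peroxisomal catalase, went from 1380 to 515 RPKM, 2.68-fold lower (2.63 to 2.73) and past the threshold. The iron superoxide dismutase FSD1 was 1.93-fold lower (1.84 to 2.04), at 293 and 152 RPKM. The ferredoxins FD1 and FD2 were 1.87-fold (1.80 to 1.95) and 1.65-fold lower (1.61 to 1.68), and the ferrochelatase FC1, at 35.5 and 21.2 RPKM, 1.67-fold lower. CAT3, at 378 and 570 RPKM, was the exception and was named after its value was seen. Its difference was -0.11 after rescaling by the median ratio.

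All 3 iron-sulfur genes with a row, of 16 listed, were lower, beside 30.6% of all rows, and 1 was past the threshold downwards. NEET, a plastid iron-sulfur protein, had 73.0 and 25.5 RPKM, 2.86-fold lower (2.45 to 3.34). ABCI8, of the plastid SUF system, was 1.67-fold lower (1.57 to 1.77), and the glutaredoxin CXIP1 1.57-fold lower (1.42 to 1.73). Green-tissue markers lay on the same side as these plastid genes: 4 of 8 had a row and all 4 were lower, beside 30.6% of all rows. Their summed level was 5619 and 3501 RPKM, most of it from RCA alone, at 5341 and 3390. The other 3, antenna genes, were past the threshold downwards, beside 10.5% of genes compared. LHCB1.1 had 74.5 and 25.3 RPKM, LHCB2.1 49.4 and 15.1, and LHCB3 154 and 70.4. The part of green tissue in the values of the iron genes was not tested.

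**Figure D3:**
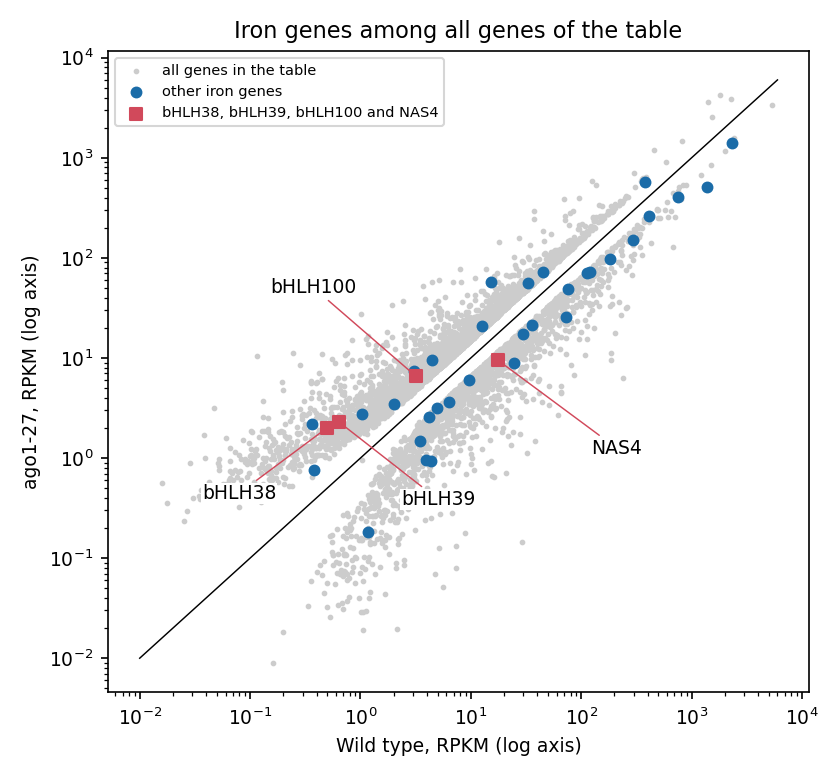
RPKM in ago1-27 against wild type, both on log axes, for all 6791 genes (grey), iron genes (blue) and the 4 genes with a row (red squares), with the line of equality. The empty band along the line is the selection of the table at 1.5-fold, and bHLH38 and bHLH39 lie at the low end of the upper branch.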

How the data were processed

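RNA-seq values of wild type and ago1-27 were used as deposited. Per the file headers, the authors deposited RPKM, 1 value for each genotype, and a ratio, ago1-27 over wild type. That ratio and the quotient of both RPKM values differed by no more than 4.17e-08 of its size. The submitters' processing notes name TopHat2 2.0.11 and TAIR10. How reads were counted, replicates combined and genes selected is not given in the sources used here. With no replicate columns, no limma or other test was run.

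The genes and lists were chosen with earlier results of these data known, so their counts are descriptions. All 10 genes were named, plus up to 5 others per iron list and 3 per tissue list by the largest absolute difference in log2(RPKM + 1). With 2 values per gene, no likeness of patterns was measured. Positions come from TAIR10.1, in which 6772 of the 6791 genes were found; lengths may differ from the authors' annotation. Reads were estimated from RPKM, the longest TAIR10.1 transcript and mean library totals of 11845532 (wild type) and 11955563 (ago1-27). Totals between 8000000 and 20000000 were searched, and per genotype the 3 that made the largest number of genes whole reads were taken. In the order given above, these numbers were 24, 23 and 17 for wild type and 20, 14 and 18 for ago1-27. The next best totals made 12 (wild type) and 8 (ago1-27) genes whole, so each total rests on few genes. Values were called reads of 1 library where a length of 0.6 to 1.3 times the annotated one made both whole, to a relative tolerance of 1e-09 plus 6e-10 divided by the RPKM. Scripts were tested on simulated data and ran in Python 3.11.15 with scipy 1.17.1, numpy 2.4.6, pandas 2.3.3 and matplotlib 3.10.9. Alternatives were 3 pseudocount settings, 2 RPKM filters and 2 rescalings.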

Additional observations from a re-analysis of the deposited data

How the results depend on the processing

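Of the alternatives, only the rescalings can turn a direction, and both left bHLH38, bHLH39 and bHLH100 higher and NAS4 lower. For the median rescaling this was fixed by the deposited ratios. It divides every ratio by 1.62, and the bHLH ratios lay above that while NAS4 lay below 1 already. Under quantiles the direction follows from each gene's rank among the levels, which was higher in ago1-27 for the bHLH genes and lower for NAS4. Neither rescaling is thus independent support for a direction. With at least 5 RPKM required, bHLH38 and bHLH39 left the comparison by construction, so 0 of the 10 genes were past the threshold upwards. Iron genes past it were 5 (2 higher, 3 lower) in place of 10, beside 10.7% of all genes compared higher and 10.5% lower. After rescaling by the median ratio, 0 of the 10 genes were past it upwards and 1 downwards, with log2 differences of 0.30 for bHLH100 and -1.46 for NAS4. Iron genes past it were then 23, 1 higher and 22 lower, and all genes 2189, 219 higher and 1970 lower, in place of 1442, 748 and 694. As shares of all genes compared, these were 3.34% higher and 30% lower. After quantile normalization, 0 of the 10 were past it upwards and 1 downwards, NAS4 at -1.14, with 2 iron genes higher and 8 lower. In all, 395 genes were higher and 1212 lower, 6% and 18.4% of those compared. Both rescalings move a table whose median ratio is 1.62 towards 1 by construction. With a pseudocount of 0.1, 2336 genes were past the threshold, 1350 of them higher, and 8 iron genes were higher. Without a pseudocount these were 2442, 1425 and 8. Of all genes compared, 20.4% and 21.6% were higher past the threshold under these 2 settings. Smaller pseudocounts let low genes pass by construction, and bHLH100 was past the threshold under both. No paired analysis was possible because the table holds 1 value per genotype. For the same reason no replicate could be left out. Of the 4 genes with a row, depth limits bHLH38 and bHLH39 most, at about 6 and 9 wild-type reads per average library.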

Other observations

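Nicotianamine also carries zinc and copper, and transporters of these metals were looked up by their reference symbols after the iron genes had been seen. Of 5 HMA pumps, 2 had a row and both were lower in ago1-27, beside 30.6% of all rows. HMA2, which exports zinc from cells, had 5.24 and 1.65 RPKM, wild type first, 3.18-fold lower and past the threshold. HMA4, with the same role in loading zinc into the xylem, had 10.4 and 6.66 RPKM, 1.56-fold lower. Of 13 ZIP transporters, ZIP5 had 0.815 and 2.12 RPKM and ZIP6 had 2.28 and 0.820 RPKM, so these 2 lay on opposite sides of 1. COPT2, the single copper transporter of 6 with a row, had 15.7 and 8.88 RPKM, 1.77-fold lower. Rows of this kind were selected for differing, so a direction within a family describes the listed rows only.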
